A study of Mus musculus with 51 samples.

Results

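The immediate early genes described here are Nr4a1, Fos, Fosb, Jun, Junb, Egr1, Dusp1, Ier2, Btg2 and Atf3, measured in mouse lung across 8 groups of arrays. They were chosen by name, as every probe set annotated to 1 of these 10 symbols, and each symbol had 1 probe set, so that 10 of the 22206 probe sets on the arrays were members. The lungs came from male mice aged 6 to 8 weeks, of the strains BALB/c and C57BL/6 and of a B-cell deficient line (B6.129S2-Ighmtm1Cgn/J, which lacks the membrane form of the immunoglobulin mu heavy chain and so mature B cells). Every mouse, controls included, had been sensitized through the skin of the back on 2 occasions with 1% methylene diphenyl diisocyanate (MDI, a reactive monomer of polyurethane production) in acetone. On days 15, 16, 19 and 20 the mice then received, through the nose and under isoflurane, either reaction products of MDI with glutathione (MDI groups) or a control solution for which MDI and glutathione had been reacted separately (control groups). Crofelemer, a chloride channel inhibitor, was given through the nose at 4 mg/kg, 4 h before each exposure, to 2 of the groups. Perfused and lavaged lung was collected 48 h after the last exposure.

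The groups were 3 MDI and 3 control arrays of BALB/c mice, 7 MDI and 9 control arrays of B-cell deficient mice, 3 MDI and 5 control arrays of C57BL/6 mice given crofelemer, and 13 MDI and 6 control arrays of C57BL/6 mice without it. A further 2 arrays had labels that contradict each other on crofelemer and entered no comparison. The labels do not say how many animals stand behind an array, so that p-values measure the spread between arrays.

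Immediate early genes are transcribed within minutes of a stimulus, without new protein synthesis, by factors that already wait at their promoters, mainly serum response factor with its ternary complex partners and CREB. Their transcripts are short-lived, and many encode transcription factors or feedback regulators of the kinase cascades that switched them on. In lung they are also known to respond to handling and dissociation of the tissue, and endothelial, smooth muscle and immune cells can all express them. Fos, Fosb, Jun and Junb encode subunits of the AP-1 transcription factor, in which a Fos protein pairs with a Jun protein. Nr4a1 encodes an orphan nuclear receptor that is induced by antigen receptor and growth factor signals. Egr1 encodes a zinc finger transcription factor, and Atf3 encodes a stress-induced factor of the ATF/CREB family. Dusp1 encodes a phosphatase that inactivates MAP kinases, Btg2 an antiproliferative cofactor of mRNA deadenylation, and Ier2 a nuclear protein of the immediate early response.

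The promoters of Nr4a1, Fos and Dusp1 are shown because these genes had large falls with MDI in C57BL/6 lungs, and that of Junb because its response differed between sets of mice. Sequences are from RefSeq on GRCm38.p6, whose promoter table had entries for 8 of the 10 members and none for Egr1 or Ier2. The 250 bases before the transcript start of Nr4a1 (chr15:101266596-101266845, plus strand), Fos (chr12:85473640-85473889, plus strand), Dusp1 (chr17:26508473-26508722, minus strand) and Junb (chr8:84978749-84978998, minus strand) read 5′ to 3′ on the gene's own strand as follows, with the core TGACG of the cyclic AMP response element (CRE), on either strand, in capitals.
Nr4a1: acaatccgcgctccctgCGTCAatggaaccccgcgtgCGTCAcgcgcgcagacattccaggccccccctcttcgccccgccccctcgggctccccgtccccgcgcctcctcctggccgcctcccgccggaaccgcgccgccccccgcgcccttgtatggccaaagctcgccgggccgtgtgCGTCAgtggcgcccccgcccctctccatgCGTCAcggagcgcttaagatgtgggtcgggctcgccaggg
Fos: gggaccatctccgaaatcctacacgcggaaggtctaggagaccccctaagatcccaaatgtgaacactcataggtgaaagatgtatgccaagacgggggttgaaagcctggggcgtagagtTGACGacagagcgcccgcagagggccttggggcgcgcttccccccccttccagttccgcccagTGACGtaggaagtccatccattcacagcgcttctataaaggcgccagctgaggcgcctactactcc
Dusp1: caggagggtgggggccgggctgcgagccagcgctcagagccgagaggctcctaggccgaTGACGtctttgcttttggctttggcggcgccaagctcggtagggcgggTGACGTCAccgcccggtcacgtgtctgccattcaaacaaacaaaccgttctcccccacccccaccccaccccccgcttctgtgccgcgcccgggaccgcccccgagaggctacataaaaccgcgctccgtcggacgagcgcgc
Junb: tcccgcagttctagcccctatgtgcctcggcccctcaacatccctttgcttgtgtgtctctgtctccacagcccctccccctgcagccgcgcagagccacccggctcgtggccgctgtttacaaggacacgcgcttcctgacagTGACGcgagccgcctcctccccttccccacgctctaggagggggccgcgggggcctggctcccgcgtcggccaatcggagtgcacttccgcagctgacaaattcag

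The CRE core TGACG, searched on both strands, stood in 7 of the 8 member promoters (all but Jun), while 17.8% of the 32851 mouse promoters in the table held it in the same window. Counted back from the transcript start, the first bases of the 4 matches in Nr4a1 stood at -233, -213, -69 and -40, and those of the 2 matches in Fos at -129 and -66. Dusp1 had 3 matches, at -191, -143 and -140, of which the last 2 overlap as the strands of 1 palindrome. Junb had 1 match, at -106. The full palindrome TGACGTCA was present in Dusp1 and Btg2, thus in 2 of 8 members against 1.55% of all promoters. The early growth response site GCGGGGGCG occurred in Nr4a1 and Fosb (2 of 8, against 2.57%) and TATAAA in Fos alone (1 of 8, against 12.4%). No match was found in the 8 windows for the AP-1 site TGANTCA (6.75% of all promoters), the Nr4a site AAAGGTCA (1.34%) or the CArG box that serum response factor binds (1.47%). These matches describe letters in a window and were not measured as binding. Sites farther from the transcript start, or with letters that depart from the exact pattern, were not searched for.

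Levels are given as the authors' deposited log2 signal, and differences are log2 differences on that scale. Array means lay at 7.37 to 7.40 in BALB/c, 8.02 to 8.07 in B-cell deficient, 7.43 to 7.48 in crofelemer-treated C57BL/6 and 7.48 to 7.51 in other C57BL/6 mice, so the sets may have been normalized separately. Levels were compared within a set, and across sets only between C57BL/6 lungs with and without crofelemer. The lung markers Sftpc (19.12 to 19.63), Scgb1a1 (19.3 to 19.9), Sftpb (17.49 to 19.02) and Ager (16.64 to 18.06) were above the 99th percentile of every one of the 49 arrays, and Foxj1 was not measured. The mean of 4 B cell markers (Cd79a, Cd79b, Ms4a1 and Pax5) was 6.93 to 7.85 in BALB/c, 4.66 to 5.46 in B-cell deficient, 5.82 to 6.33 in crofelemer-treated C57BL/6 and 7.24 to 9.05 in other C57BL/6 lungs, given side by side. The records form 3 blocks of consecutive entries, which the labels do not call batches. All BALB/c arrays lie in the first block, C57BL/6 arrays without crofelemer in the first block (12 MDI, 4 control) and the third (1 MDI, 2 control), and those with crofelemer in the first block (3 MDI, 4 control) and the third (1 control). Of the B-cell deficient arrays, 4 MDI arrays lie in the first block and the other 3 MDI arrays and all 9 controls in the second. Among these controls, 4 (numbers 1, 2, 5 and 6) stand apart by a narrow spread of signal (interquartile range 4.05 to 4.37, against 4.61 to 5.65 in all other arrays of the 8 groups), and results of B-cell deficient mice are also given without them where a call changed or a printed difference moved by over 1.5 times. In whole lung, fewer cells of a type and less RNA per cell cannot be told apart.

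The comparison of MDI with control in C57BL/6 mice asked what the nasal exposure added in sensitized lungs. Of the 10 members, 7 fell in MDI lungs: Nr4a1, Fos, Fosb, Egr1, Dusp1, Ier2 and Btg2 (limma, adjusted p under 0.05 over all 22206 probe sets). Jun, Junb and Atf3 did not pass the test, and none rose. For comparison, 9.23% of all probe sets were lower by the same rule. The median difference of the 10 members was -0.64, against 0.01 over all probe sets, and all 10 estimates were below 0.

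Nr4a1 signal in C57BL/6 lungs had a lowest, median and highest value of 6.71, 7.51 and 8.54 over 13 MDI arrays, against 8.18, 9.08 and 10.89 over 6 control arrays. The groups overlapped at their edges, with 11 of 13 MDI arrays below the lowest control. The log2 difference was -1.75 ± 0.31 (SE; limma, adjusted p = 8.75e-05), the 9th largest fall of all probe sets. Fos ranged over 5.71, 6.65 and 8.35 (lowest, median, highest) in MDI lungs, against 6.80, 8.07 and 8.65 in control lungs. One MDI array, number 4, stood at the top of its group and 12 of 13 were below the control median. Fos differed by -1.22 ± 0.27 (limma, adjusted p = 0.00105).

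Egr1 had values of 7.20, 8.88 and 10.47 (lowest, median, highest) in MDI lungs, against 9.31, 10.66 and 11.23 in control lungs. All 13 MDI arrays were below the control median, and 10 were below the lowest control. The Egr1 difference was -1.50 ± 0.36 (limma, adjusted p = 0.00309). Dusp1, the MAP kinase phosphatase, ranked above 97.8% of the probe sets in each C57BL/6 array without crofelemer. Its signal ran over 14.79, 16.03 and 16.93 in MDI lungs, against 16.57, 17.44 and 17.84 in control lungs, with 10 of 13 MDI arrays below every control. The Dusp1 difference was -1.33 ± 0.27 (limma, adjusted p = 0.000365).

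**Figure D1:**
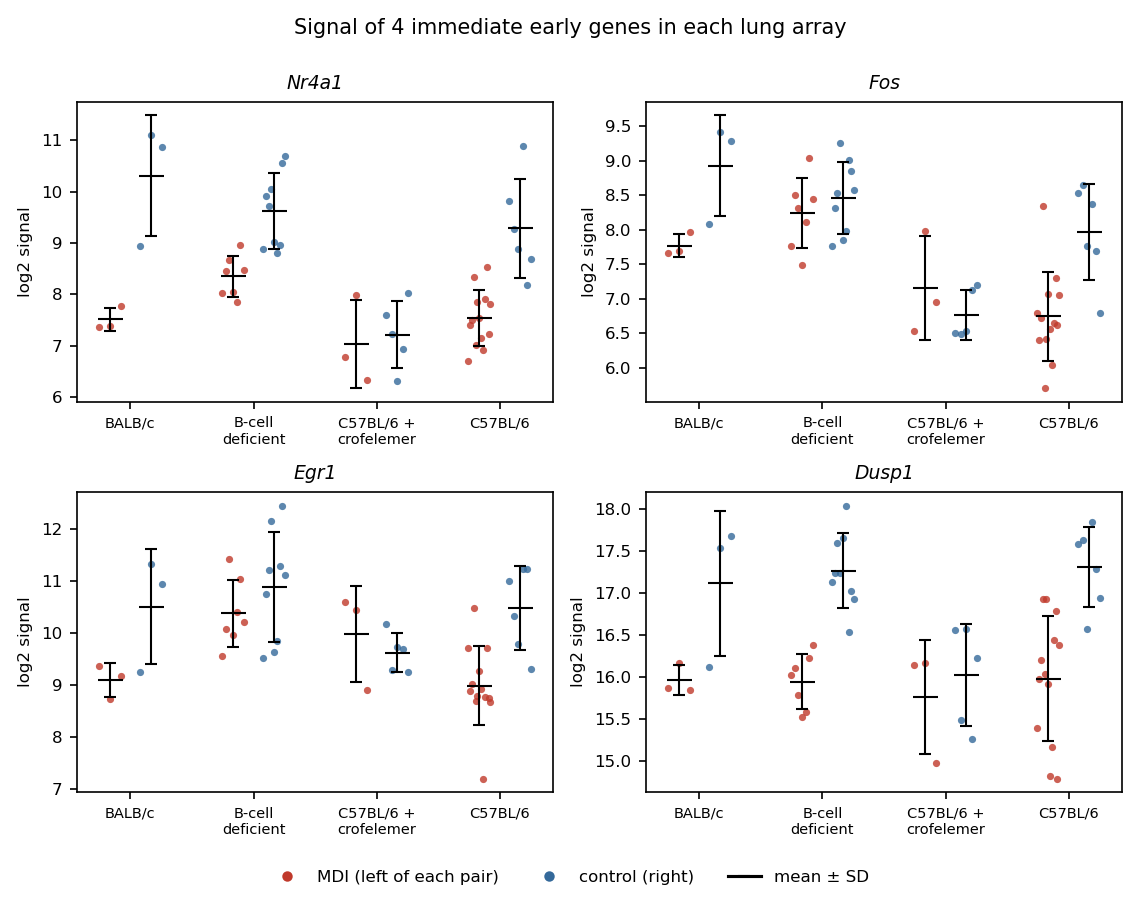
Log2 signal of Nr4a1, Fos, Egr1 and Dusp1 (y axis, one panel per gene) in each array, by set of mice (x axis). Red points are MDI arrays and blue points control arrays, and black bars are the group mean and SD. In C57BL/6 lungs without crofelemer the 13 MDI arrays of Nr4a1 lie at 6.71 to 8.54 and the 6 control arrays at 8.18 to 10.89, while with crofelemer the 3 MDI and 5 control arrays overlap.

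The other members that fell in C57BL/6 lungs did so by smaller amounts. Fosb averaged 5.81 ± 0.28 in MDI lungs and 6.46 ± 0.63 in control lungs (SD, n = 13 and 6), a difference of -0.65 ± 0.19 (SE; limma, adjusted p = 0.0183). Its call rested on single controls: without control 1 the adjusted p was 0.113 and without control 4 it was 0.0679. Ier2 averaged 8.14 ± 0.42 in MDI lungs and 8.77 ± 0.45 in control lungs, and differed by -0.63 ± 0.17 (limma, adjusted p = 0.00694). Btg2 averaged 11.29 ± 0.35 in MDI lungs and 11.85 ± 0.31 in control lungs, and differed by -0.56 ± 0.14 (limma, adjusted p = 0.00551).

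The Jun subunits of AP-1 came close to the threshold without passing it. Jun averaged 11.99 ± 0.27 in MDI lungs and 12.33 ± 0.18 in control lungs, with a difference of -0.34 ± 0.12 (limma, adjusted p = 0.0586), and its call was gained without control 2 (adjusted p = 0.0403) or without MDI array 1, 2, 4 or 14 (0.0350 to 0.0490). Junb averaged 8.22 ± 0.56 in MDI lungs and 8.80 ± 0.59 in control lungs, with a difference of -0.58 ± 0.21 (limma, adjusted p = 0.0502). Without control 6, the lowest control at 7.82, the Junb difference was -0.78 (limma, adjusted p = 0.00834), and its call was also gained without control 3 or MDI array 4, 8 or 12 (adjusted p = 0.0192 to 0.0402). Atf3 averaged 8.47 ± 0.40 in MDI lungs and 8.54 ± 0.28 in control lungs, and its difference of -0.08 had a 95% interval of -0.42 to 0.26. Within the first block of records alone the differences were -2.21 for Nr4a1, -1.61 for Fos, -1.58 for Egr1, -1.46 for Dusp1 and -0.76 for Junb, all past the threshold (limma, adjusted p = 5.61e-05 to 0.0476). In the third block the single MDI array had 7.81 for Nr4a1, against 8.18 and 8.68 in its 2 controls. That array was also below both controls for Egr1 (8.67, against 11.23 and 9.31) and Dusp1 (16.38, against 17.29 and 16.94). It lay between the 2 controls for Fos (7.05, against 7.70 and 6.80) and Junb (8.11, against 9.05 and 7.82).

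BALB/c mice were compared in the same way with 3 arrays a group. Nr4a1 was the only member that fell (1 of 10, while 0.0405% of all probe sets were lower), and its fall was the largest of all 22206 probe sets in this comparison. Nr4a1 signal was 7.37, 7.39 and 7.78 in MDI lungs, against 8.95, 11.10 and 10.87 in control lungs. The groups did not overlap, and the first control lay closest to the MDI arrays. The difference was -2.79 ± 0.52 (SE; limma, adjusted p = 0.00205). Without control 2 it was -2.40 (adjusted p = 0.0652) and without control 3 it was -2.51 (0.0544), so the call needed both of these arrays.

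Fos signal in BALB/c lungs was 7.66, 7.69 and 7.97 with MDI, against 8.09, 9.41 and 9.29 in controls. Egr1 was at 9.37, 8.73 and 9.16 with MDI, against 9.25, 11.32 and 10.93 in controls. Dusp1 was at 15.87, 16.17 and 15.85 with MDI, against 16.12, 17.54 and 17.68 in controls. For all 3 genes control 1 was the control nearest to the MDI arrays, and for Egr1 and Dusp1 it lay among them. The differences were -1.16 ± 0.44 for Fos, -1.41 ± 0.60 for Egr1 and -1.15 ± 0.44 for Dusp1, and none passed (limma, adjusted p = 0.524 to 0.687).

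Every MDI array was below every control array for 4 members in BALB/c mice (Nr4a1, Fos, Ier2 and Btg2), a pattern shown by 6.83% of all probe sets. Btg2 had 11.61, 11.99 and 12.10 with MDI, against 12.35, 12.79 and 12.80 in controls, and a difference of -0.75 ± 0.24 (limma, adjusted p = 0.279). The members' median difference was -0.63, against -0.01 over all probe sets, and 5 of 10 were lower at an unadjusted p under 0.05, as were 2.52% of all probe sets. Junb differed by 0.01 ± 0.35 and Atf3 by 0.18 ± 0.28, the 2 estimates above 0, and the sign of the Junb estimate turned (-0.01) when arrays were centred on their median.

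The difference between the MDI effects of BALB/c and C57BL/6 mice was tested directly. No member passed, with limma adjusted p-values of 0.717 to 0.994 while 0.0270% of all probe sets passed. At an unadjusted p under 0.05 it was none of the 10, against 7.82% of all probe sets. For Nr4a1 the BALB/c effect minus the C57BL/6 effect was -1.04 with a 95% interval of -2.26 to 0.18. For Fos it was 0.06 (-0.97 to 1.10) and for Junb 0.60 (-0.21 to 1.41), so with 3 BALB/c arrays a group these intervals leave room for differences of about the size of the effects.

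**Figure D2:**
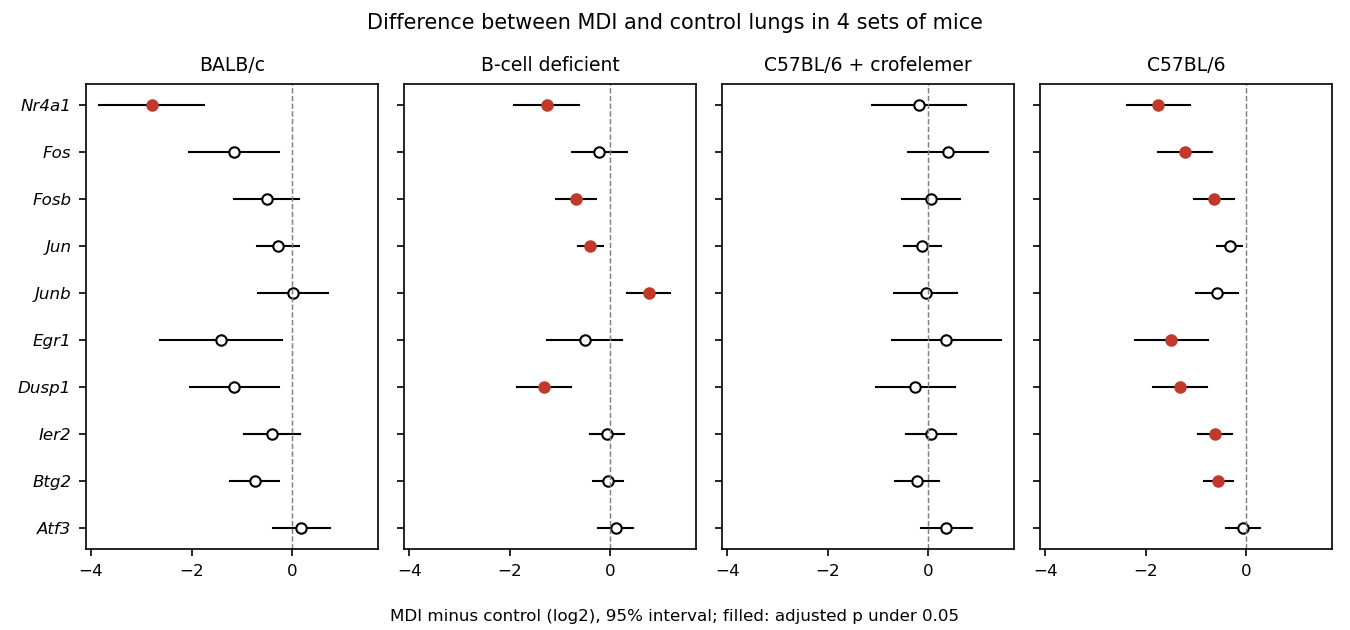
Log2 difference of MDI minus control (x axis) for the 10 members (y axis) in 4 sets of mice (panels), with 95% intervals from limma. Filled points passed an adjusted p of 0.05. Nr4a1 is filled at -2.79 in BALB/c, -1.27 in B-cell deficient and -1.75 in C57BL/6 mice, Junb is filled to the right of 0 (0.76) in B-cell deficient mice, and no point is filled with crofelemer.

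In B-cell deficient mice the members split. Nr4a1, Dusp1, Fosb and Jun fell in MDI lungs (4 of 10, while 20.7% of all probe sets were lower) and Junb rose (1 of 10, while 16.2% were higher). Fos, Egr1, Ier2, Btg2 and Atf3 did not pass. The median difference of the members was -0.31, against -0.06 over all probe sets. Without the 4 controls of narrow spread, Nr4a1, Dusp1, Jun and Egr1 fell (4 of 10, against 9.07% of all probe sets) and none rose (against 7.95%), with a median of -0.45 over the members and -0.05 over all probe sets.

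Nr4a1 signal in B-cell deficient lungs had a lowest, median and highest value of 7.86, 8.46 and 8.97 over 7 MDI arrays, against 8.81, 9.72 and 10.70 over 9 control arrays. All 7 MDI arrays were below the control median, and the groups overlapped only by the highest MDI array. The difference was -1.27 ± 0.32 (SE; limma, adjusted p = 0.00172), and -1.64 without the 4 controls of narrow spread (adjusted p = 0.00120). Within the second block of records it was -1.19 (adjusted p = 0.0252). Dusp1 ran over 15.52, 16.02 and 16.38 in MDI lungs, against 16.53, 17.24 and 18.04 in control lungs. Dusp1 was the only member with every MDI array below every control (1 of 10, against 2.36% of all probe sets). It differed by -1.32 ± 0.27 (limma, adjusted p = 0.000161). The difference was -1.12 without the 4 controls of narrow spread (adjusted p = 0.0112), and -1.20 within the second block of records (adjusted p = 0.000949).

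Junb, the AP-1 subunit, had a lowest, median and highest value of 8.10, 8.95 and 9.20 in B-cell deficient MDI lungs, against 7.73, 8.00 and 8.78 in control lungs. Control 7, at 8.78, stood alone above the other controls, whose highest was 8.15. The Junb difference was 0.76 ± 0.21 (SE; limma, adjusted p = 0.00439). Within the second block of records, which holds 3 of the MDI arrays and all controls, it was 0.94 (adjusted p = 0.00264). Without the 4 controls of narrow spread it was 0.59 and did not pass (adjusted p = 0.0982).

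Fosb averaged 6.30 ± 0.28 in MDI lungs and 6.99 ± 0.39 in control lungs of B-cell deficient mice (SD, n = 7 and 9), a difference of -0.69 ± 0.20 (limma, adjusted p = 0.00550). Jun averaged 12.57 ± 0.33 in MDI lungs and 12.96 ± 0.18 in control lungs, a difference of -0.40 ± 0.13 (limma, adjusted p = 0.0116). Both calls ended within the second block of records (-0.58 with adjusted p = 0.0651 for Fosb, -0.27 with 0.160 for Jun). The Fosb call also ended without the 4 controls of narrow spread (adjusted p = 0.134), while the Jun call held without them (-0.42, 0.0473) and ended without MDI array 3 (0.0527).

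Fos averaged 8.24 ± 0.51 in MDI lungs and 8.46 ± 0.52 in control lungs of B-cell deficient mice, and its difference of -0.22 had a 95% interval of -0.77 to 0.33. Egr1 averaged 10.38 ± 0.64 in MDI lungs and 10.88 ± 1.05 in control lungs, with a difference of -0.50 (-1.25 to 0.24). Without the 4 controls of narrow spread, which held the 4 lowest Egr1 control values (9.52 to 10.74), the Egr1 difference was -1.26 (limma, adjusted p = 0.0178). Ier2 differed by -0.06, Btg2 by -0.05 and Atf3 by 0.10, with 95% intervals that reached no further than 0.45 from 0. Without those 4 controls the differences were -0.60 for Fos (limma, adjusted p = 0.181), -0.31 for Ier2 (0.279), -0.19 for Btg2 (0.491) and 0.16 for Atf3 (0.654). Within the second block of records they were 0.07 for Fos, 0.05 for Ier2 and 0.39 for Atf3, and none of these 3 passed. Over the alternatives run, the Egr1 difference lay between -1.26 and -0.25 and the Btg2 difference between -0.19 and 0.01.

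**Figure D3:**
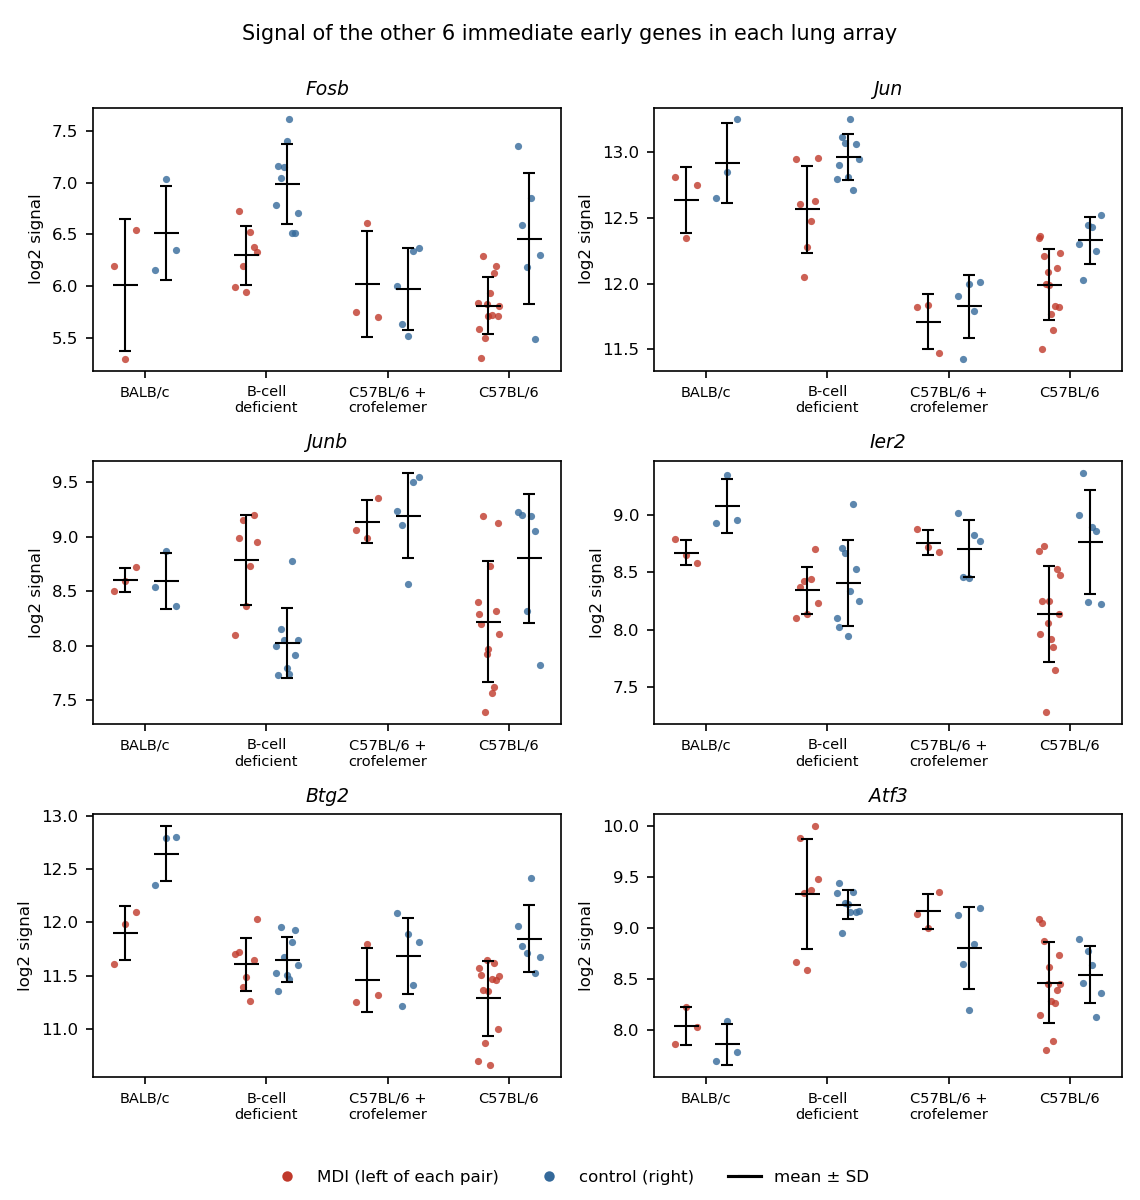
Log2 signal of Fosb, Jun, Junb, Ier2, Btg2 and Atf3 (y axis, one panel per gene) in each array, by set of mice (x axis). Red points are MDI arrays, blue points control arrays, and black bars the group mean and SD. Junb averages 8.78 in MDI and 8.02 in control lungs of B-cell deficient mice, and 8.22 in MDI and 8.80 in control lungs of C57BL/6 mice.

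The MDI effect of B-cell deficient mice minus that of C57BL/6 mice passed the test for Junb alone among the members (1 of 10, while 9.27% of all probe sets were higher). It was also 1 of 10 without the 4 controls of narrow spread, against 1.62%. The Junb difference was 1.34 ± 0.30 (SE; limma, adjusted p = 0.00168), with the effects of 0.76 in B-cell deficient and -0.58 in C57BL/6 mice on either side of 0. It was 1.18 without the 4 controls of narrow spread (adjusted p = 0.0366) and 1.56 with the block of records as a term (0.00567). Fos was next, at 1.00 ± 0.38 (limma, adjusted p = 0.0545), and was called with the block of records as a term (1.35, adjusted p = 0.0458) and without any 1 of 8 arrays, which were C57BL/6 MDI 4 and 11 and control 6, and B-cell deficient MDI 1 and 4 and controls 4, 7 and 8 (adjusted p = 0.0170 to 0.0465). It was 0.62 without the 4 controls of narrow spread (adjusted p = 0.407) and 0.79 with quantile normalization (0.135). Ier2 was called without C57BL/6 control 3 or 6 or B-cell deficient control 7 (adjusted p = 0.0362 to 0.0439), and Btg2 without B-cell deficient MDI array 5 (0.0483). The Dusp1 effects were -1.32 in B-cell deficient and -1.33 in C57BL/6 mice (difference 0.01, 95% interval -0.75 to 0.77), and without the 4 controls of narrow spread the difference was 0.21. For Nr4a1 the difference was 0.49 (-0.42 to 1.39). The Nr4a1 value was 0.11 without the 4 controls (limma, adjusted p = 0.934), 0.16 with quantile normalization (0.841) and 0.83 with the replicate number as a block (0.0989).

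The difference of the MDI effects between these 2 sets of mice, positive for Junb, was also positive in the median for most cell types. The median was 1.85 for neutrophil, 1.01 for heart muscle (0 of 6 passed), 0.99 for macrophage and 0.91 for eosinophil markers (1 of 6 passed). It was -0.06 for B cell and -0.03 for alveolar type 2 markers. Within C57BL/6 lungs 5 of 6 macrophage markers rose with MDI, while the Junb estimate was -0.58. Of the 6 neutrophil markers, 2 rose and none fell with MDI in B-cell deficient lungs, 3 fell and 1 rose in C57BL/6 lungs, and the difference of the effects was positive and passed for 4, Mmp9 (3.42 ± 0.60), Retnlg (2.59 ± 0.57), Csf3r (2.10 ± 0.57) and Cxcr2 (1.53 ± 0.52). The mean log2 signal of the 6 was 9.07 to 9.81 in B-cell deficient MDI lungs and 7.31 to 9.34 in their controls, and 8.59 to 12.55 in C57BL/6 MDI lungs and 10.06 to 13.04 in their controls. With the 4 controls of narrow spread left out, 1 neutrophil marker rose in B-cell deficient lungs and the difference of the effects passed for 2, Mmp9 (2.94 ± 0.65) and Retnlg (1.92 ± 0.56). For macrophage markers it was positive and passed for 4 of 6 (median difference 0.99), C1qa, C1qc, Csf1r and Adgre1, and for 1 of 6 without those controls, Csf1r. Of all probe sets, 9.27% had a positive difference that passed, and 1.62% without those controls. The mean log2 signal of the 6 macrophage markers was 11.7 to 12.4 in B-cell deficient MDI lungs and 9.53 to 10.5 in their controls, and 10.9 to 12.2 in C57BL/6 MDI lungs and 10.0 to 10.9 in their controls. The part of these cell types in the Junb result was not tested.

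With crofelemer, no member passed the test between MDI and control lungs. The limma adjusted p-values were 0.767 to 0.986, and 0.0540% of all probe sets passed. None of the 10 had an unadjusted p under 0.05, against 8.22% of all probe sets. Nr4a1 signal was 6.78, 7.98 and 6.33 in MDI lungs given crofelemer, against 7.59, 7.22, 6.31, 6.93 and 8.02 in control lungs given crofelemer. Fos was 6.54, 7.99 and 6.95 in MDI lungs, against 6.50, 6.49, 6.53, 7.13 and 7.20 in control lungs. The groups overlapped for both genes, with MDI array 2 the highest MDI array of each. The differences were -0.18 for Nr4a1 (95% interval -1.12 to 0.75) and 0.39 for Fos (-0.40 to 1.18). The falls estimated without crofelemer, -1.75 and -1.22, lay outside these intervals, which leave out the error of those falls. The direct test of the MDI effect with crofelemer against that without passed for neither gene (limma, adjusted p = 0.226 for Nr4a1 and 0.120 for Fos).

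Dusp1 was 16.14, 16.17 and 14.98 in MDI lungs given crofelemer, against 16.56, 15.49, 16.57, 15.26 and 16.23 in their controls. Egr1 was 10.59, 10.43 and 8.91 in MDI lungs given crofelemer, against 10.16, 9.28, 9.73, 9.69 and 9.24 in their controls. MDI array 3 was the lowest array of both genes. The differences were -0.26 for Dusp1 (95% interval -1.05 to 0.53) and 0.36 for Egr1 (-0.72 to 1.44). The median over the members was -0.005, against -0.001 over all probe sets.

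The MDI effect with crofelemer minus the effect without it was above 0 for all 10 members, with a median of 0.69 against 0.02 over all probe sets, but none passed (limma), while 0.423% of all probe sets did. At an unadjusted p under 0.05 it was 5 of 10 members, against 12.1% of all probe sets. It was 1.85 ± 0.65 for Egr1 (adjusted p = 0.210), 1.61 ± 0.48 for Fos (0.120), 1.57 ± 0.56 for Nr4a1 (0.226), 1.07 ± 0.47 for Dusp1 (0.338) and 0.68 ± 0.30 for Ier2 (0.327). Over the alternatives run, the adjusted p for Fos lay between 0.0522 and 0.413.

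Set against C57BL/6 mice without it, crofelemer went with different levels of the members in the control lungs and in the MDI lungs. These contrasts share arrays with the MDI comparisons, and any difference in processing between the sets with and without crofelemer cannot be told apart from them. In control lungs, 4 of 10 members were lower with crofelemer (21.4% of all probe sets were lower) and none was higher. Nr4a1, given above for the 5 crofelemer controls, averaged 7.21 ± 0.65 with crofelemer and 9.29 ± 0.96 without it (SD, n = 5 and 6), a difference of -2.07 ± 0.39 (SE; limma, adjusted p = 1.84e-05). In the third block of records the single crofelemer control had 8.02 for Nr4a1, against 8.18 and 8.68 in the 2 controls without it. The same array had 7.20 for Fos, against 7.70 and 6.80. Dusp1 averaged 16.02 ± 0.61 with crofelemer and 17.31 ± 0.48 without it, a difference of -1.29 ± 0.33 (limma, adjusted p = 0.00125). Fos averaged 6.77 ± 0.36 with crofelemer and 7.97 ± 0.70 without it, a difference of -1.20 ± 0.33 (limma, adjusted p = 0.00273). Jun differed by -0.50 ± 0.15 (limma, adjusted p = 0.00674), and its call ended with arrays centred on their median (-0.35, adjusted p = 0.0602) or quantile normalized (-0.33, 0.0943).

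In MDI lungs, Junb, Atf3 and Ier2 were higher with crofelemer (3 of 10, while 15.0% of all probe sets were higher) and no member was lower. Junb was 9.06, 8.99 and 9.36 with crofelemer, against a lowest, median and highest value of 7.39, 8.20 and 9.19 without it. The difference was 0.92 ± 0.27 (SE; limma, adjusted p = 0.00658). Atf3 was 9.14, 9.00 and 9.35 with crofelemer, against 7.81, 8.45 and 9.09 without it, a difference of 0.70 ± 0.22 (limma, adjusted p = 0.0111). Ier2 was 8.88, 8.72 and 8.68 with crofelemer, against 7.28, 8.14 and 8.73 without it, a difference of 0.62 ± 0.22 (limma, adjusted p = 0.0217). For each gene the highest array with crofelemer was above every array without it, and all 3 were above that group's median. With the replicate number as a block, 0 of the 3 calls held (limma, adjusted p = 0.0621 for Junb, 0.417 for Atf3 and 0.325 for Ier2). The labels do not say that these numbers pair animals. That fit kept only the 3 numbers found in both groups, and thus 3 of the 13 arrays without crofelemer. Over all probe sets 643 were then higher, against 3336 with all arrays. Without crofelemer MDI array 3, Junb (0.0570), Atf3 (0.0817) and Ier2 (0.0503) were not called and Egr1 was (1.53, adjusted p = 0.0318), so that 1 member was called. Ier2 was also lost without array 1 (0.115) or 2 (0.0552).

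Endothelial and other markers differed between the lungs with and without crofelemer. All 8 endothelial markers were lower with crofelemer in control lungs (median difference -1.16) and 6 of 8 were lower in MDI lungs (-0.81). The mean log2 signal of the 8 was 13.0 to 13.7 in control lungs with crofelemer and 14.3 to 14.7 without it, and 12.8 to 13.3 in MDI lungs with crofelemer and 13.5 to 14.3 without it. In control lungs 5 of 6 neutrophil markers were lower with crofelemer, and the mean of 6 heart muscle markers was 8.50 to 8.81 with crofelemer and 8.93 to 12.30 without it. All 4 B cell markers were lower with crofelemer, with median differences of -2.28 in control lungs and -2.38 in MDI lungs. Of 6 macrophage markers 4 were higher with crofelemer in control lungs, and in MDI lungs 5 of 6 eosinophil and 4 of 6 T cell markers were lower. Of all 22206 probe sets, 4753 were lower and 3916 higher with crofelemer in control lungs, and 3896 lower and 3336 higher in MDI lungs. The part of these cell types in the members' differences was not tested.

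Endothelial and other markers also moved with MDI. In BALB/c mice none of 8 passed (median difference -0.29), in B-cell deficient mice 4 fell (-0.34) and in C57BL/6 mice 6 fell (-0.51). Of 6 macrophage markers, 3 rose in BALB/c, 6 in B-cell deficient and 5 in C57BL/6 lungs. Of 6 eosinophil markers, 1 rose in BALB/c, 6 in B-cell deficient and 4 in C57BL/6 lungs. No heart muscle marker passed in these 3 comparisons. Of 7 smooth muscle and fibroblast markers, 5 rose and 1 fell in B-cell deficient (median difference 0.90) and in C57BL/6 lungs (0.73), and none passed in BALB/c lungs (0.23). Of 6 T cell markers, 5 rose in B-cell deficient and 4 in C57BL/6 lungs, and none passed in BALB/c lungs. Of 5 alveolar type 1 markers, 2 fell in B-cell deficient and 3 in C57BL/6 lungs. Over all probe sets 20.7% were lower and 16.2% higher in B-cell deficient lungs, and 9.23% lower and 5.30% higher in C57BL/6 lungs. In BALB/c lungs 9 of 22206 were lower and 58 higher. Without the 4 B-cell deficient controls of narrow spread, 3 endothelial markers fell, 6 macrophage, 5 eosinophil, 4 T cell and 1 heart muscle markers rose, and 5 smooth muscle and fibroblast markers rose and 1 fell. Of all probe sets 9.07% were then lower and 7.95% higher. The mean of the 8 endothelial markers was 13.5 to 14.3 in C57BL/6 MDI lungs and 14.3 to 14.7 in control lungs. The part of these cell types in the members' differences with MDI was not tested.

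Across arrays of the same group, the members varied together in part. After each group's mean was removed, Pearson correlations were computed over the 49 arrays for all 45 pairs, with permutation of arrays within groups (100000 resamples) and Benjamini-Hochberg adjustment over the 45. The median r was 0.30, 20 pairs passed an adjusted p of 0.05 for r (19 for both r and Spearman's rho), and 3 pairs were below 0. In the first block of records alone (33 arrays) the median r was 0.38. The strongest pairs were Fos with Ier2 (r = 0.71, rho = 0.70, permutation adjusted p = 0.00015 for each) and Junb with Ier2 (r = 0.71, rho = 0.64, permutation adjusted p = 0.00015 and 0.00027). Fos also correlated with Egr1 (r = 0.69, rho = 0.64), Nr4a1 (r = 0.66, rho = 0.69) and Junb (r = 0.65, rho = 0.58). Without the 2 arrays farthest from the median on the x axis the 5 values of r were 0.66, 0.65, 0.63, 0.65 and 0.53.

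The pairs of Dusp1 that passed were those with 4 members. Dusp1 correlated with Btg2 (r = 0.59, rho = 0.58, permutation adjusted p = 0.00045 and 0.00084), Nr4a1 (r = 0.48, rho = 0.48, 0.0052 and 0.0069), Jun (r = 0.42, rho = 0.44, 0.018 and 0.011) and Fosb (r = 0.35, rho = 0.38, 0.037 and 0.026). Its values with Fos (r = 0.33, rho = 0.29) and Egr1 (r = 0.31, rho = 0.29) did not pass (permutation adjusted p = 0.092 to 0.13), and in the first block of records r was 0.44 and 0.56. Differences between correlations were not tested. Dusp1 and Junb had r = -0.08 (rho = -0.07, permutation adjusted p = 0.69 and 0.74). Junb and Jun, which compete as partners of Fos proteins, had r = -0.14 (rho = -0.16, permutation adjusted p = 0.44 and 0.37). The arrays of a set share their processing, which can add to such correlations.

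**Figure D4:**
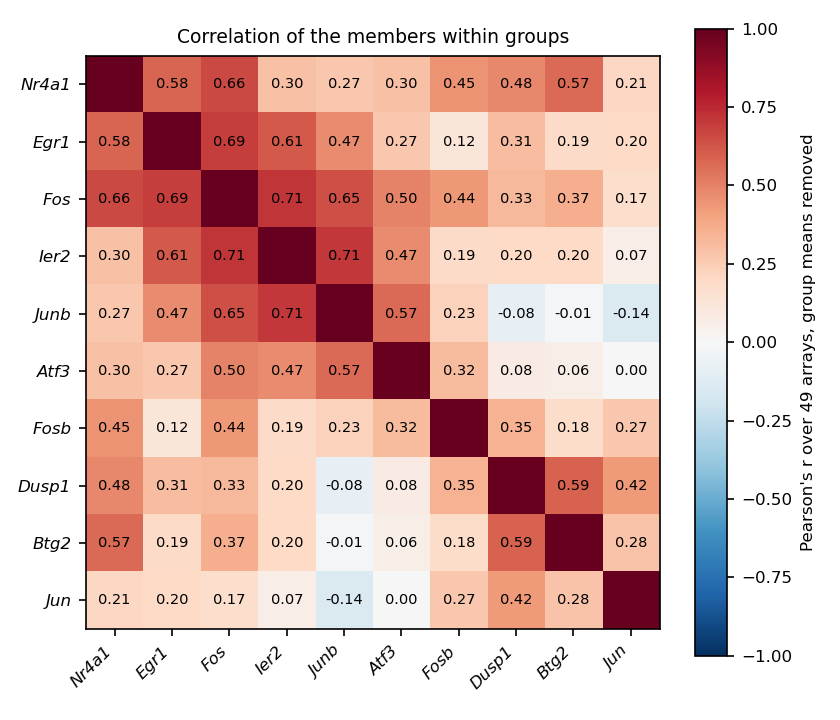
Pearson's r between the signals of each pair of members (both axes) over 49 arrays after each group's mean was removed, with red for positive and blue for negative values. Fos, Ier2, Junb and Egr1 form a red block of 0.47 to 0.71, and the cells of Junb with Dusp1, Btg2 and Jun are near 0 or below it.

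The genes outside the 10 whose signal was most like the members' mean, by within-group correlation over the 49 arrays, were Rasa3 (0.74), Spry1 (0.70), Zfp36 (0.70), Hlx (0.68), Spry4 (0.67), Zfp36l2 (0.67), Unkl (0.66) and Ntn1 (0.65). These values are a description over arrays that share processing within each set.

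Other immediate early genes were taken from lists chosen with earlier results of these data known. Of 18 further transcription factors, 4 fell and 2 rose with MDI in B-cell deficient mice, and 7 fell and none rose in C57BL/6 mice. Over all probe sets 20.7% were lower and 16.2% higher in B-cell deficient mice, and 9.23% lower and 5.30% higher in C57BL/6 mice, so the counts in B-cell deficient mice lay near the share of all probe sets. Without the 4 B-cell deficient controls of narrow spread 4 fell and 2 rose (median -0.06), against 9.07% and 7.95%. The median difference of the list was -0.01 in B-cell deficient and -0.43 in C57BL/6 mice. Nr4a2, a nuclear receptor of the same family as Nr4a1, fell by 1.60 ± 0.18 in B-cell deficient mice (limma, adjusted p = 1.70e-09) and by 1.17 ± 0.18 in C57BL/6 mice (6.06e-06). Klf6, a zinc finger factor, fell by 0.74 ± 0.13 in B-cell deficient and by 0.44 ± 0.12 in C57BL/6 mice. Egr3 fell by 0.84 ± 0.15 and Nfil3, a bZIP factor, rose by 0.81 ± 0.16 in B-cell deficient mice, against differences of -0.09 and 0.07 in C57BL/6 mice that did not pass. The difference between the sets passed for both, at -0.75 ± 0.21 for Egr3 (limma, adjusted p = 0.00859) and 0.74 ± 0.23 for Nfil3 (0.0193), and for neither without the 4 controls (-0.41, adjusted p = 0.222 for Egr3, and 0.82, 0.0629 for Nfil3). The Egr3 fall in B-cell deficient mice was then 0.50 (adjusted p = 0.0137).

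Of 27 measured feedback and effector genes (of 30 listed), 9 fell and 1 rose with MDI in B-cell deficient mice, and 12 fell and none rose in C57BL/6 mice. Over all probe sets 20.7% were lower and 16.2% higher in B-cell deficient mice, and 9.23% lower and 5.30% higher in C57BL/6 mice. In B-cell deficient mice 8 fell and none rose without the 4 controls of narrow spread, against 9.07% and 7.95% of all probe sets. Errfi1, a feedback inhibitor of the EGF receptor, fell by 1.21 ± 0.24 in B-cell deficient (0.77 without the 4 controls, adjusted p = 0.0325) and by 0.87 ± 0.24 in C57BL/6 mice. Rhob, an endosomal small GTPase, fell by 0.72 ± 0.19 in B-cell deficient and by 1.00 ± 0.19 in C57BL/6 mice. Zfp36, which destabilizes AU-rich mRNAs, differed by -0.54 ± 0.25 in B-cell deficient mice, which did not pass, and fell by 1.24 ± 0.24 in C57BL/6 mice. Arc, best known from neurons, fell by 0.54 ± 0.11 in B-cell deficient mice (0.35 without the 4 controls, adjusted p = 0.0454) and differed by 0.10 ± 0.11 in C57BL/6 mice, which did not pass. The difference between the sets passed for Arc (-0.64 ± 0.16, limma, adjusted p = 0.00461), and not without the 4 controls (-0.45, 0.107).

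Of 19 measured upstream kinases and factors (of 25), 4 fell and 3 rose in B-cell deficient mice, and 5 fell and none rose in C57BL/6 mice. The counts in B-cell deficient mice lay near the share of all probe sets given above, and without the 4 controls of narrow spread 1 fell and 2 rose. Mrtfa, a coactivator of serum response factor, rose by 0.84 ± 0.16 in B-cell deficient mice and differed by -0.35 ± 0.16 in C57BL/6 mice, which did not pass, and the difference between the sets was 1.19 ± 0.23 (limma, adjusted p = 0.000434), or 1.03 without the 4 controls (0.0169). Mapk14, the p38 alpha kinase, rose by 0.55 ± 0.12 in B-cell deficient mice, while Mef2a fell by 0.50 ± 0.10 there. Mrtfb fell by 0.46 ± 0.11 in C57BL/6 mice.

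Heat shock genes, which respond to stress and handling by another route, fell in 6 of 9 measured cases in B-cell deficient mice (median difference -1.01) and in 2 of 9 in C57BL/6 mice (-0.08), with 11 genes listed. Over all probe sets 20.7% were lower in B-cell deficient mice (9.07% without the 4 controls of narrow spread) and 9.23% in C57BL/6 mice. Without the 4 controls of narrow spread 3 of 9 fell in B-cell deficient mice (median -0.45), and the Hspa1a difference was -0.47 and did not pass (limma, adjusted p = 0.376). Bag3, a co-chaperone, fell by 0.65 ± 0.17 in B-cell deficient and by 1.07 ± 0.17 in C57BL/6 mice. Hspb1, a small heat shock protein, fell by 1.01 ± 0.19 in B-cell deficient and by 0.71 ± 0.19 in C57BL/6 mice. Hsp90aa1 and Hspa1a fell by 1.01 ± 0.20 and 1.11 ± 0.32 in B-cell deficient mice, and their differences of -0.25 and -0.08 in C57BL/6 mice did not pass. The mean of the 9 genes was 10.2 to 11.2 in B-cell deficient MDI lungs and 10.8 to 11.9 in their controls. In BALB/c mice and with crofelemer no gene of these 4 lists passed for MDI against control. The part of handling or stress in the members' values was not tested.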

How the data were processed

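Gene expression was measured on 51 1-colour arrays with biotin label and 250 ng RNA. The authors deposited log2 signal for 22206 probe sets, written with Transcriptome Analysis Console per the submitters' processing notes. The sources used here give neither its version nor its normalization, and log base 2 was inferred from the values. No deposited value was rescaled. Gene symbols came from the platform annotation (19572 probe sets with 1 symbol, 2634 with none).

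The 10 members, the lists of other genes, the comparisons and the alternatives were chosen with earlier results of these data known. In other lists, genes named are up to 4 called genes of smallest adjusted p in C57BL/6 or B-cell deficient mice.

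Comparisons used limma 3.58.1 in R 4.3.3, as 1 model of 8 group means over 49 arrays (41 residual degrees of freedom) with an intensity trend and 2-sided tests. Benjamini-Hochberg adjustment covered all 22206 probe sets, and an adjusted p under 0.05 counts as a call. The number of arrays limits the precision. The procedure was tested on simulated data. Correlations used scipy 1.17.1 in Python 3.11.15 and figures matplotlib 3.10.9. Alternatives were median centring, quantile normalization, the 11103 probe sets of highest mean, array weights, no trend, only the compared groups, the block of records, the replicate number as a block, and each array left out.

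Replicate numbers come from the titles. The labels do not say that these numbers pair animals. Correlations of same-numbered deviations were all over 0.1 only for crofelemer against none in MDI-exposed mice (0.167, 0.166 and 0.105). For MDI against control in C57BL/6 mice the 6 values ran from -0.222 to 0.184. These correlations were not tested, so they do not decide whether arrays are paired.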

Additional observations from a re-analysis of the deposited data

Results flagged for a closer look

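Junb in control 7 of the B-cell deficient mice was 8.78, while the nearest other control of that group was 8.15, a gap of 0.6 of the group's range. It was the 1 value found far from the rest of its group among 40 groups of values examined, and about 1 in 20 such groups is marked by chance.

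The effect of MDI on Junb differed between B-cell deficient and C57BL/6 mice by 1.34 on the log2 scale by limma's test of the difference (adjusted p = 0.00168). The cause was not tested.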

How the results depend on the processing

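Direction and call were kept in 2258 of 2421 alternatives of single members. In 24 a call ended, in 39 one was gained, in 100 an estimate that was not called changed sign, and no called difference was reversed. Most of the member results were not called in the main fit, and most alternatives left out 1 array. The share kept therefore does not measure how stable the calls are. Of the counts of called members, those for MDI with crofelemer, for the effect of MDI with crofelemer minus without, and for BALB/c minus C57BL/6 were 0 throughout. In BALB/c mice the count of 1 became 2 with array weights and 0 to 1 with an array left out. In B-cell deficient mice the count of 5 became 3 with the block of records as a term and 3 within the second block, and 4 to 5 with an array left out. For crofelemer in MDI lungs the count of 3 became 1 to 3 with an array left out. For the B-cell deficient minus the C57BL/6 effect the count of 1 became 2 with the block of records as a term and 1 to 3 with an array left out. In C57BL/6 mice 6 to 9 members and for crofelemer in control lungs 4 to 5 were called with an array left out. The causes of these changes were not tested. The alternative without the 4 B-cell deficient controls of narrow spread and the correlations within the first block were chosen after seeing the data.

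With the replicate number as a block, the count of called members was 4 in BALB/c mice (Nr4a1, Fos, Dusp1 and Btg2, against 1), 5 in C57BL/6 mice (without Ier2, adjusted p = 0.144, and Btg2, 0.103, against 7), 5 for crofelemer in control lungs (with Egr1, against 4) and 0 for crofelemer in MDI lungs (against 3). It was 5 in B-cell deficient mice and 1 for their effect minus that of C57BL/6, as without it. In every comparison the labels give the samples only a shared number. These fits kept only arrays whose number occurs in both of the groups set against each other. In C57BL/6 mice these were 6 of the 13 MDI arrays, and for crofelemer in MDI lungs 3 of the 13 arrays without it. Over all probe sets 519 were then lower in C57BL/6 mice, against 2049 with all arrays, and 76 in BALB/c mice, against 9. Loss of arrays and the block term cannot be told apart here.

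With median centring, the median difference over all probe sets became -0.11 in B-cell deficient mice, 0.14 for crofelemer in MDI lungs, 0.19 for crofelemer in control lungs and -0.11 for the B-cell deficient minus the C57BL/6 effect. It moved the share of higher among called probe sets to 49.4% in C57BL/6 mice (36.5% as deposited), 59.4% (46.1%) and 64.8% (45.2%) for crofelemer in MDI and control lungs, 25.7% (42.6%) for the effect with crofelemer minus without, and 28.5% (45.7%) for the B-cell deficient minus the C57BL/6 effect. For MDI against control with crofelemer, quantile normalization moved that share to 45.5% (66.7% as deposited). These shares rest on few probe sets, 10 higher and 12 lower after quantile normalization and 8 and 4 as deposited.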

Other observations

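The 2 arrays whose labels contradict each other on crofelemer, numbered 4 and 13, had Nr4a1 signals of 7.09 and 7.55, Fos of 7.19 and 6.77, Egr1 of 9.95 and 9.52, Dusp1 of 15.91 and 14.40, and Junb of 8.84 and 8.54.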
